A study of Homo sapiens with 8 samples.

Results

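The response of ATF3-knockout-labelled hTERT-RPE1 cells to 8 h without serine and glycine was described from 4 of the 8 RNA sequencing libraries of the series. hTERT-RPE1 is a human line derived from retinal pigment epithelium and made immortal by telomerase. The 4 libraries carry the genotype label ATF3(-/-) and come from 2 independent experiments a week apart, called batches below: in each batch, 1 culture stayed in complete medium and 1 was moved to serine/glycine-free medium for 8 h. The other 4 libraries, labelled wildtype, were treated in the same 2 batches and stand beside them for comparison. None of the 8 libraries is labelled as 8 h in fresh complete medium. Loss of serine and glycine thus cannot be told apart from the medium change or the time since it. How the ATF3 alleles were disrupted, and whether the cells labelled ATF3(-/-) are 1 clone, was not given in the texts available. Each gene was read as the difference between serine/glycine-free and complete medium within a batch, on the log2(FPKM + 1) scale. FPKM are fragments per kilobase of transcript, scaled to the number of mapped fragments. Genes with 1 FPKM or more in at least 2 of the 4 knockout-labelled libraries were kept, 16098 of the 57884 listed, of which 12481 are protein-coding.

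Serine and glycine feed protein, phospholipid, glutathione and one-carbon synthesis, and cultured cells take them up or make them from a glycolytic intermediate. When an amino acid runs short, uncharged tRNA activates the kinase GCN2, which phosphorylates the initiation factor eIF2. General translation then slows while the transcription factor ATF4 is made, and ATF4 with C/EBP partners turns on amino acid transporters, biosynthetic enzymes and tRNA synthetases. ATF3 is a stress-induced factor of the same ATF/CREB family and is itself a target of ATF4.

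**Figure D1:**
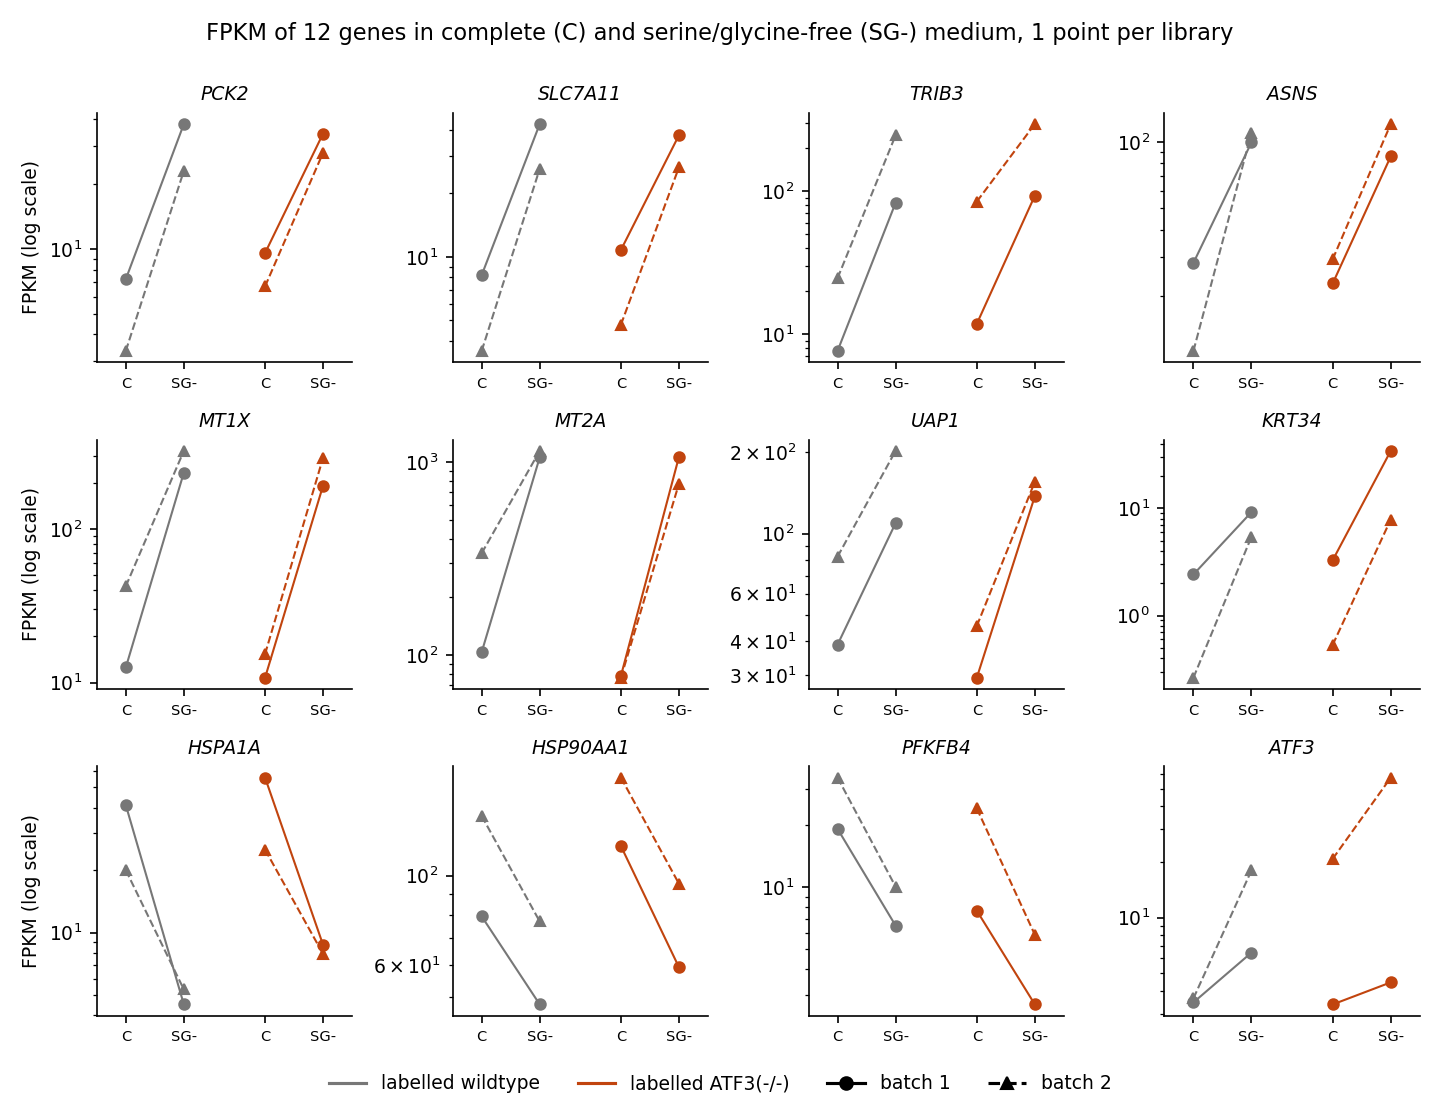
FPKM on a log axis for 12 genes, 1 point per library, in complete (C) and serine/glycine-free (SG-) medium; circles with solid lines are batch 1, triangles with dashed lines batch 2, grey the wildtype label and orange the ATF3(-/-) label. In both orange pairs PCK2, SLC7A11, TRIB3, ASNS, MT1X, MT2A, UAP1 and KRT34 sit higher in serine/glycine-free medium and HSPA1A, HSP90AA1 and PFKFB4 lower, and ATF3 is present in all 8 libraries.

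The ATF3 transcript was present in every knockout-labelled library. It measured 3.38 and 4.45 FPKM in batch 1 and 20.8 and 57.3 FPKM in batch 2 in complete and serine/glycine-free medium, against 3.47 and 6.46 FPKM in batch 1 and 3.65 and 18.01 FPKM in batch 2 in the wildtype-labelled libraries. Gene-level FPKM do not show whether a transcript is intact, so they do not check the label. The number of fragments per library is not known, because low FPKM did not fall on steps shared by the libraries. The knockout-labelled libraries of the 2 batches also differed in cell identity markers, as the wildtype-labelled ones did in part. KRT19, a simple-epithelium keratin, was at 0 and 0.741 FPKM in batch 1 and 375 and 306 FPKM in batch 2 in complete and serine/glycine-free medium and at 0.281 and 0.143 FPKM in batch 1 and 321 and 216 FPKM in batch 2 in wildtype. CDKN2A, a cell cycle inhibitor gene, was at 0 and 0 FPKM in batch 1 and 57.6 and 42.1 FPKM in batch 2 and in wildtype at 0 and 0 FPKM in batch 1 and 62.01 and 74.6 FPKM in batch 2. The summed FPKM of 15 epithelial markers was 224 and 235.01 in the batch 1 libraries labelled ATF3(-/-) and 1429 and 1166 in those of batch 2. CDH1, the epithelial cadherin, measured 0.201 and 0.618 FPKM in batch 1 and 59.96 and 56.2 FPKM in batch 2 in complete and serine/glycine-free medium. It was at 0.74 and 0.54 FPKM in the wildtype-labelled complete-medium libraries of batches 1 and 2. The mesenchymal intermediate filament gene VIM measured 1018 and 1247 FPKM in batch 1 and 118 and 102 FPKM in batch 2. The summed FPKM of 13 mesenchymal markers, VIM among them, was 1720 and 1881 in batch 1 and 224 and 220.1 in batch 2. Not all of these markers followed VIM. FN1, which encodes fibronectin, was higher in batch 2, at 20.5 and 26.1 FPKM in batch 1 and 38.3 and 56.7 FPKM in batch 2. Of 11 retinal pigment epithelium markers, 3 passed the filter on low values, and OTX2, a transcription factor of that tissue, was at 0 in all 4 libraries. Between bulk libraries, fewer cells of a type and less RNA per cell cannot be told apart. The batch 2 pair labelled ATF3(-/-) stands apart, so batch values stand beside many results below, and a single difference is the mean of both batches. The part of this difference in any result was not tested.

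To show the response elements that bear on the gene groups below, stretches upstream of the RefSeq gene starts were searched on both strands (GRCh38.p14). The core of the amino acid response element, TGATGNAA, which ATF4 and C/EBP proteins bind, was found within 250 bases upstream of a start in 8 of the 40 ATF4-list genes with a window (20%), against 3.9% of all 27305 genes with one. The 8 are AARS, ASNS, ATF3, CEBPG, CHAC1, GARS, JDP2 and SLC1A5. Matches of 4 genes whose values follow are shown 5′ to 3′ on the strand of the gene, with the match in capitals, and lie 35 to 202 bases before the start. In CHAC1 the match is on the opposite strand.
ASNS (chr7:97872455-97872490): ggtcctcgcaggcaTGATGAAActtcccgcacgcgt
CEBPG (chr19:33374057-33374092): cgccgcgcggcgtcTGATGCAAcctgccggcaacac
CHAC1 (chr15:40953248-40953283): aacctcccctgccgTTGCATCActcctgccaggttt
SLC1A5 (chr19:46784890-46784925): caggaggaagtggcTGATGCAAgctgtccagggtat

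A pair of inverted heat shock factor half-sites, GAANNTTC, which reads alike on both strands, was found in 10 of 18 heat shock chaperone genes with a window (55.6%), against 7.0% of all genes. Metal response element cores, TGCACNC or TGCGCNC, are short and common, at 28.5% of all genes. They were found in MT1X, MT2A and SLC30A1 among the 5 metallothionein and zinc-handling genes with a window. Examples from genes described below follow, with the match in capitals.
HSPA1A (chr6:31815423-31815458): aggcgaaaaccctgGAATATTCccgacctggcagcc
HSP90AA1 (chr14:102087106-102087141): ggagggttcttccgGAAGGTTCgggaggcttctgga
MT1X (chr16:56682334-56682368): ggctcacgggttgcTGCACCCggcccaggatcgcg
MT2A (chr16:56608516-56608550): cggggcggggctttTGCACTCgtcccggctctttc
A match describes these letters only, and no binding was measured here.

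Few differences passed the test, and of the 23 protein-coding genes that passed when fitted alone, 8 are on the list of ATF4 amino acid response genes. When all 16098 genes were fitted together with limma and adjusted by Benjamini-Hochberg at 0.05, 4 genes were higher (0.0248%) and 2 lower (0.0124%) in serine/glycine-free medium. All 6 are non-coding or unmatched small genes listed at 0 in both libraries of 1 medium, and none is protein-coding. An unadjusted p under 0.05 was found for 1758 genes. When the 12481 protein-coding genes were fitted alone, 21 were higher (0.168%) and 2 lower (0.016%). The 21 were MT1X, UAP1, PCK2, SARS, CSRP1, KRTAP2-3, SLC7A11, PPP1R15A, FHL2, KRT34, MT2A, WDR43, TRIB3, ARHGEF2, WARS, DDX21, SLC3A2, GTPBP2, CIRBP, XBP1 and SLC1A5. HSP90AA1 and CLDN4 were the 2 lower. Adjusted p-values below are from this fit of protein-coding genes unless all genes are named, and differences ± SE (n = 2 pairs) and unadjusted p-values are from the fit of all genes. The spread in that fit is shared with the 2 wildtype pairs, and the p-values measure the spread between these pairs of cultures. Without either library of the batch 1 pair labelled ATF3(-/-) the protein-coding fit called 0 genes, without either of the batch 2 pair 1 gene (TRIB3, higher), and without the pairing 0 (a library left out leaves its partner with no information). Without any 1 of these 4 libraries the fit of all genes also called 0. Without any 1 of the wildtype libraries the protein-coding fit called 62 to 80 genes higher and 9 to 13 lower, all 23 among them, and the fit of all genes 16 or 17 higher and 10 lower. In wildtype-labelled cells the protein-coding fit called 55 genes higher (0.441%) and 6 lower (0.0481%).

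**Figure D2:**
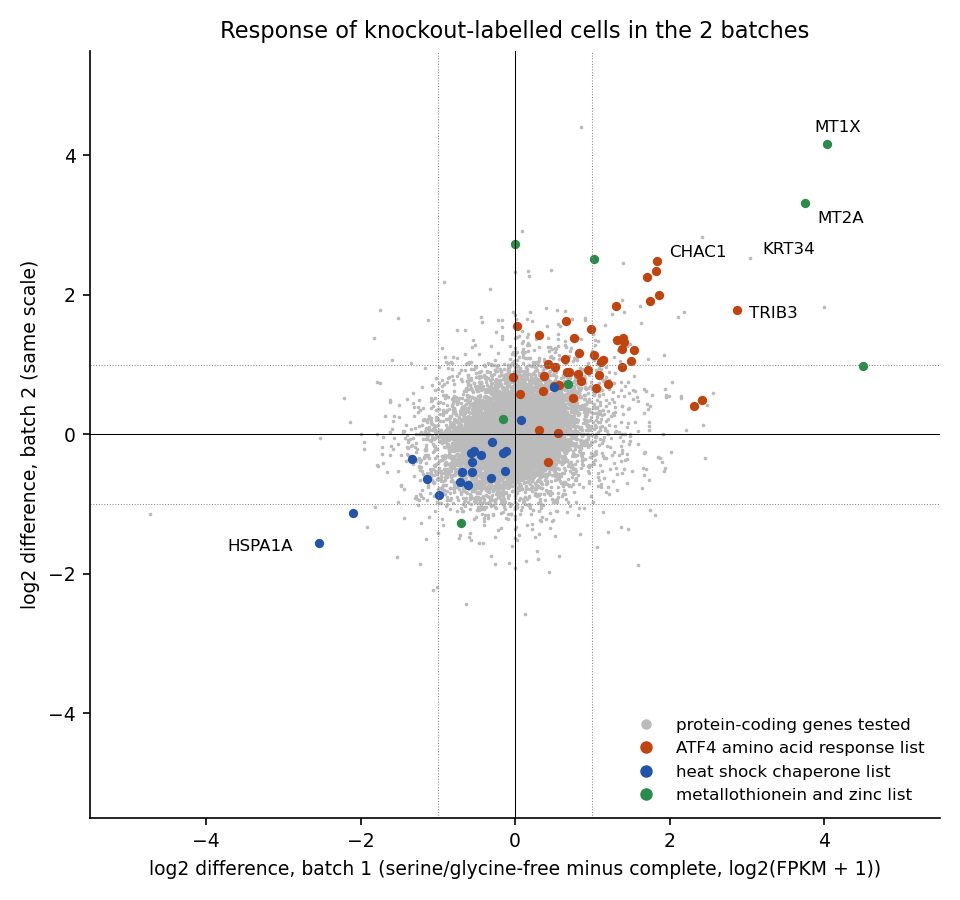
Log2 difference (serine/glycine-free minus complete) of 12481 protein-coding genes in the batch 1 pair (x axis) and the batch 2 pair (y axis) labelled ATF3(-/-), with 3 gene lists in colour and dotted lines at differences of 1 and -1. The upper right corner holds MT1X at 4.04 and 4.16, and ATF4-list genes spread along the upper right quadrant.

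Between the batches, 51 protein-coding genes were higher by a log2 difference of 1 or more in both pairs (0.409%) and 16 were lower (0.128%). Opposite movement of that size was found for 8 genes (0.0641%) that were higher in batch 1 and 6 (0.0481%) that were higher in batch 2. In single pairs, 282 genes were higher (2.26%) and 244 lower (1.95%) by that much in batch 1, and 222 (1.78%) and 144 (1.15%) in batch 2, so that most large differences were seen in 1 batch only. Across the 12481 genes the 2 pairs correlated at r = 0.251, a description over genes, which are not independent replicates. A smaller difference shared by both pairs was more common, with 3663 genes (29.3%) higher in both and 3407 (27.3%) lower in both. Every count below of list members higher or lower in both batches stands beside these 2 shares.

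ATF4-list genes made up 16 of the 51 protein-coding genes that were higher by 1 or more in both pairs. Of the 46 ATF4-list genes tested, 44 were higher in both batches and none lower in both, 37 were higher at an unadjusted p under 0.05 (against 6.43% of protein-coding genes), and 8 were called in the protein-coding fit. The list's median log2 difference was 0.98, at 0.96 in batch 1 and 1.02 in batch 2, beside 0.01 over all protein-coding genes. FAM129A and VLDLR moved in opposite directions in the 2 batches. PCK2, the mitochondrial phosphoenolpyruvate carboxykinase, went from 9.55 to 34.3 FPKM (batch 1) and 6.69 to 27.96 FPKM (batch 2). Both serine/glycine-free libraries lay above both complete-medium libraries, with a difference of 1.83 ± 0.15 (adjusted p = 0.0213). Its locus in the tables, shared with other genes, is chr14:24549316-24602058 (hg19).

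Genes that feed back on the pathway included some of its largest differences. TRIB3, a pseudokinase that restrains ATF4 and AKT signalling, went from 11.8 to 93.1 FPKM (batch 1) and 84.7 to 295 FPKM (batch 2) (chr20:361261-378203, hg19). Its batches started far apart, and each was higher in serine/glycine-free medium, with a difference of 2.33 ± 0.26 (adjusted p = 0.0222). PPP1R15A, which encodes the GADD34 subunit that directs a phosphatase to eIF2, went from 8.29 to 23.7 FPKM (batch 1) and 15.9 to 41.4 FPKM (batch 2) (difference 1.37 ± 0.14, adjusted p = 0.0334). CHAC1, which degrades glutathione, went from 2.83 to 12.7 FPKM (batch 1) and 6.12 to 38.8 FPKM (batch 2), and its difference of 2.16 ± 0.45 did not pass (adjusted p = 0.124). SESN2, a leucine-sensing brake on mTORC1, went from 2.91 to 12.8 FPKM (batch 1) and 3.27 to 20.7 FPKM (batch 2) and likewise did not pass (2.09 ± 0.35, adjusted p = 0.0701). DDIT4, another mTORC1 brake, differed between the batches, at 11.8 and 67.8 FPKM in batch 1 and 42.5 and 60.1 FPKM in batch 2 in complete and serine/glycine-free medium. EIF4EBP1, a translation repressor, had a difference of 0.96 ± 0.14 (1.20 and 0.72 in batches 1 and 2, adjusted p = 0.0585). TRIB2, a relative of TRIB3, was lower in both pairs at -0.72 (unadjusted p = 0.0064). Of the 15 tested genes in the list of ATF4 feedback genes and mTORC1 brakes, 9 were higher in both batches and 2 were lower in both.

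Transcription factors of the pathway had log2 differences of at most 1.33. ATF4 mRNA itself measured 159 and 288 FPKM in batch 1 and 95.6 and 179 FPKM in batch 2 in complete and serine/glycine-free medium, a difference of 0.87 ± 0.20 (unadjusted p = 0.006). CEBPG, a partner of ATF4 on the element shown above, went from 17.05 to 37.9 FPKM (batch 1) and 13.2 to 28.1 FPKM (batch 2) (1.07 ± 0.13, adjusted p = 0.0518). CEBPB reached 0.97 (adjusted p = 0.0502) and DDIT3, encoding CHOP, 1.33 (adjusted p = 0.126). XBP1, a factor of the endoplasmic reticulum stress response, went from 28.3 to 60.2 FPKM (batch 1) and 48.4 to 98.1 FPKM (batch 2) and passed (1.03 ± 0.13, adjusted p = 0.0478). ATF3 had a difference of 0.87 ± 0.41 (adjusted p = 0.386), at 0.32 in batch 1 and 1.42 in batch 2. Of 26 genes tested in the list of ATF and C/EBP factors, 17 were higher in both batches and 1 was lower in both. These stand beside 29.3% and 27.3% of protein-coding genes, and XBP1 was the 1 called.

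Chaperones of the endoplasmic reticulum did not share the difference of XBP1. The list of these chaperones and the unfolded protein response held 22 tested genes, with a median of -0.04. In both batches 4 were higher and 8 lower, beside 29.3% and 27.3% of protein-coding genes. HERPUD1, which serves degradation of misfolded proteins, was higher in both (0.93 ± 0.14, adjusted p = 0.0646), whereas SDF2L1 (-0.57) and PDIA3 (-0.27) were lower at unadjusted p under 0.05. HSPA5, the main chaperone of the compartment, was at -0.34 in batch 1 and 0.62 in batch 2.

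Of the serine synthesis enzymes, 3 of 3 were higher in both batches, without passing the adjusted threshold. PSAT1, the aminotransferase step, went from 19.5 to 52.2 FPKM (batch 1) and 31.9 to 75.8 FPKM (batch 2) (1.30 ± 0.19, adjusted p = 0.0547). PSPH, the phosphatase that releases serine, went from 24.8 to 44.6 FPKM (batch 1) and 23.9 to 44.2 FPKM (batch 2) (0.84 ± 0.11, adjusted p = 0.0602), and its values in the 2 batches nearly coincided. PHGDH, the first enzyme, had the smallest difference of the 3 at 0.60 ± 0.23 (unadjusted p = 0.045). The hydroxymethyltransferases that join serine to the folate cycle split by compartment. Mitochondrial SHMT2 was higher in both batches at 0.52 and 0.97 (unadjusted p = 0.016), and cytosolic SHMT1 was lower in both at -0.22 and -0.62 (unadjusted p = 0.051).

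In the one-carbon list, the mitochondrial arm held the largest differences. MTHFD2, the mitochondrial methylenetetrahydrofolate dehydrogenase, went from 111 to 276 FPKM (batch 1) and 67.97 to 247 FPKM (batch 2) (1.58 ± 0.29, adjusted p = 0.0785). MTHFD1L, the mitochondrial formate-releasing enzyme, had a difference of 0.96 ± 0.18 and the formyltransferase MTFMT one of 0.93 ± 0.18. The cytosolic MTHFD1 was lower in both batches at -0.22 (unadjusted p = 0.22). As a whole the 23 genes tested had a median of 0.08, beside 0.01 over all protein-coding genes. In both batches 10 were higher and 7 lower, beside 29.3% and 27.3% of protein-coding genes. At an unadjusted p under 0.05, 6 were higher and 1 lower, beside 6.43% and 4.63%. ASNS, asparagine synthetase, went from 22.9 to 86.02 FPKM (batch 1) and 29.5 to 121 FPKM (batch 2). Both serine/glycine-free libraries lay above both complete-medium libraries, but its difference of 1.93 ± 0.33 did not pass (adjusted p = 0.0646).

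Amino acid transporters were mixed, with 3 called higher and others lower or split by batch. SLC7A11, the light chain of the cystine/glutamate exchanger, went from 10.8 to 37.7 FPKM (batch 1) and 4.78 to 26.6 FPKM (batch 2) (1.98 ± 0.20, adjusted p = 0.0222). SLC3A2, the heavy chain it shares with other exchangers, went from 77.9 to 221 FPKM (batch 1) and 137 to 284 FPKM (batch 2) (1.27 ± 0.15, adjusted p = 0.0317), and SLC1A5, a carrier of neutral amino acids including serine and glutamine, went from 72 to 190.4 FPKM (batch 1) and 41.2 to 81.4 FPKM (batch 2) (1.18 ± 0.15, adjusted p = 0.0451). SLC6A9, a glycine transporter, had a difference of 1.1 ± 0.19 and SLC1A4, a serine and alanine carrier, 1.07 ± 0.26, at 0.76 in batch 1 and 1.37 in batch 2. SLC1A3, an aspartate and glutamate carrier, was lower in both pairs at -0.70 (unadjusted p = 0.03). SLC6A6, a taurine carrier, was at 1.15 in batch 1 and -0.63 in batch 2. Of 19 transporters tested, 10 were higher in both batches and 4 lower in both, beside 29.3% and 27.3% of protein-coding genes. Their median was 0.45 for the mean of both batches, but 0.76 in batch 1 and 0.72 in batch 2, which are also the values without a library of the other batch.

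The cytosolic aminoacyl-tRNA synthetases, which charge tRNAs with amino acids, were higher as a group. Of 20 tested, 18 were higher in both batches and 2 were called. At an unadjusted p under 0.05, 12 were higher, against 6.43% of protein-coding genes. The list's median was 0.57 (0.40 in batch 1 and 0.67 in batch 2). SARS, which charges serine onto its tRNA, went from 74.3 to 218 FPKM (batch 1) and 54.3 to 127 FPKM (batch 2) and had the largest difference of the list (1.37 ± 0.12, adjusted p = 0.0213). GARS, the glycyl enzyme, went from 77.5 to 154 FPKM (batch 1) and 36.6 to 106 FPKM (batch 2) (1.24 ± 0.20, adjusted p = 0.0602). WARS, the tryptophanyl enzyme, passed at 0.93 ± 0.11 (adjusted p = 0.0478). QARS was the 1 enzyme lower in both batches (-0.22, unadjusted p = 0.075), and VARS and KARS lay near 0 at 0.07 and 0.09. Of the 17 mitochondrial synthetases tested, 8 were higher in both batches and 4 lower in both, beside 29.3% and 27.3% of protein-coding genes. Their median was 0.07.

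**Figure D3:**
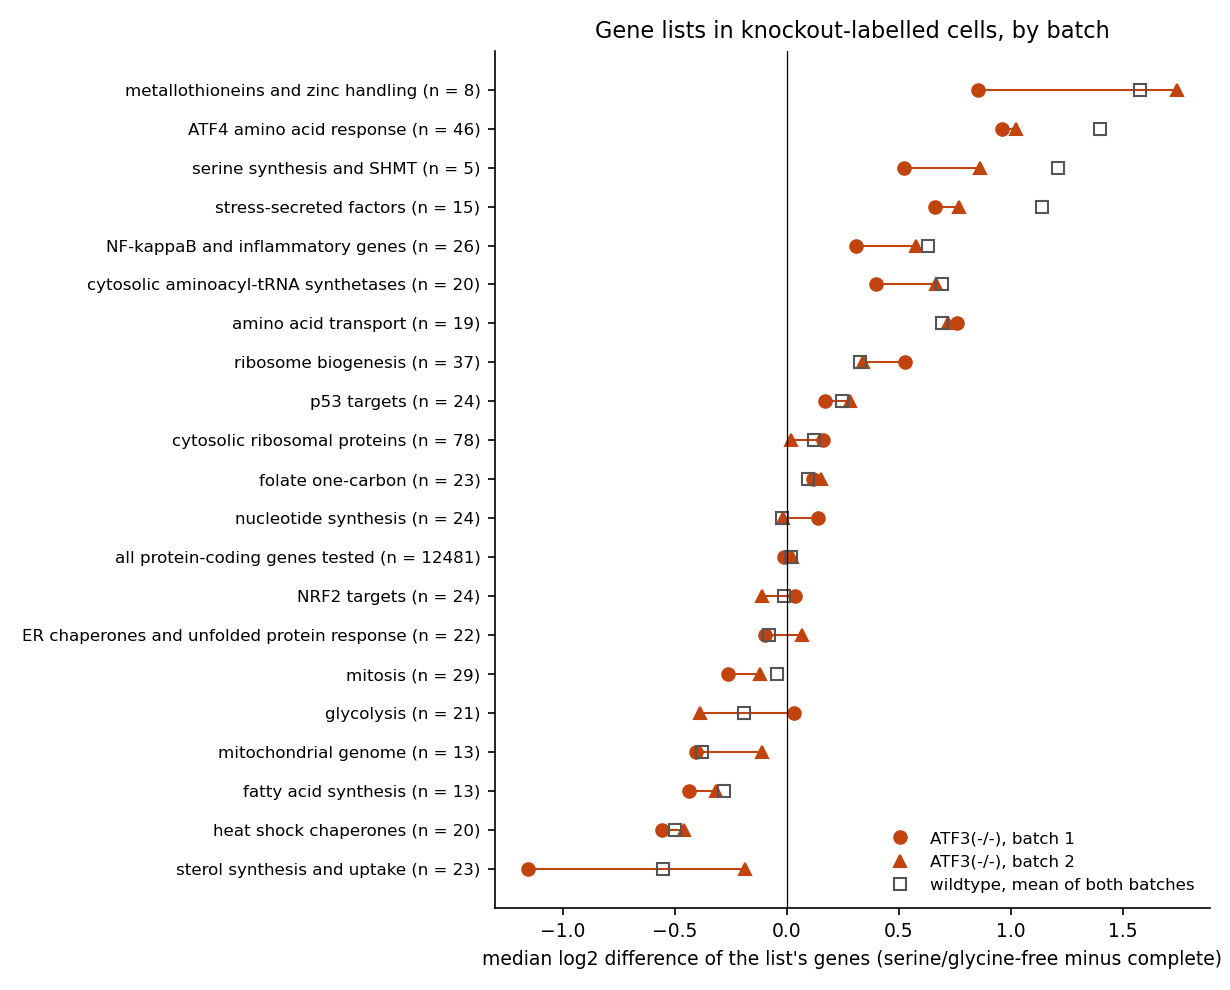
Median log2 difference (serine/glycine-free minus complete) of 21 sets of genes in the knockout-labelled pairs of batch 1 (circles) and batch 2 (triangles), with the wildtype mean of both batches as squares; n is the number of genes tested. ATF4-list genes lie near 1 in both batches, heat shock chaperones near -0.5 in both, and sterol genes at -1.16 in batch 1 and -0.19 in batch 2.

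MT1X and MT2A had the largest mean differences of the 12481 protein-coding genes. These are small cysteine-rich proteins that bind zinc and copper, and their genes respond to metal through the factor MTF1. MT1X went from 10.8 to 192 FPKM (batch 1) and 15.4 to 292 FPKM (batch 2), with a difference of 4.10 ± 0.29 (adjusted p = 0.00748; with all genes, 0.053), at chr16:56716336-56721964 (hg19). MT2A went from 78.2 to 1065 FPKM (batch 1) and 76.5 to 774 FPKM (batch 2) (3.54 ± 0.37, adjusted p = 0.0213; chr16:56642111-56643409). Both serine/glycine-free libraries lay far above both complete-medium libraries for each gene. The related copies MT1E and MT1F were split by batch. MT1E was at 51.7 and 1195 FPKM in batch 1 and 0 and 0.965 FPKM in batch 2, whereas MT1F was at 0 in both libraries of batch 1 and at 8.78 and then 63.6 FPKM in batch 2. In wildtype, MT1E was split in the same way, at 69.99 and 1706 FPKM in batch 1 and 0.949 and 3.14 FPKM in batch 2. Reads of such copies can be assigned to one another, so single-gene values of the family are uncertain. SLC30A1, the zinc exporter of the plasma membrane, went from 7.22 to 15.7 FPKM (batch 1) and 2.73 to 20.2 FPKM (batch 2) (1.77 ± 0.40, adjusted p = 0.153). SLC39A10, a zinc importer, was lower in both batches, from 27.3 to 16.5 FPKM (batch 1) and 25.9 to 10.2 FPKM (batch 2) (-0.98 ± 0.19, adjusted p = 0.126), and the importer SLC39A14 was higher (0.70, adjusted p = 0.126). MTF1 itself was at -0.15 and 0.22 (unadjusted p = 0.89). Of the list's 14 genes, 8 were tested, 5 were higher in both batches and 1 lower in both.

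Heat shock chaperones were lower in serine/glycine-free medium. These proteins fold and protect other proteins and are driven by the factor HSF1. Of 20 tested, 18 were lower in both batches, 13 had an unadjusted p under 0.05 (against 4.63% of protein-coding genes in that direction), 1 was called, and the list median was -0.47 (-0.56 in batch 1 and -0.46 in batch 2). HSP90AA1, the inducible HSP90, went from 118 to 59.4 FPKM (batch 1) and 175 to 95.5 FPKM (batch 2) and passed (-0.92 ± 0.11, adjusted p = 0.0388). Both serine/glycine-free libraries lay below both complete-medium libraries, with the batches starting at different levels. HSPA1A, the inducible HSP70, went from 55.7 to 8.72 FPKM (batch 1) and 25.1 to 7.89 FPKM (batch 2) (-2.05 ± 0.37, adjusted p = 0.0843), and the near-identical HSPA1B from 22.5 to 4.49 FPKM (batch 1) and 15.7 to 6.67 FPKM (batch 2) (-1.61 ± 0.32). Reads of these copies may have been split between them.

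The constitutive HSP70 gene HSPA8, the most abundant of the list in batch 1, went from 1041 to 632 FPKM (batch 1) and 784 to 489 FPKM (batch 2) (-0.70 ± 0.11, adjusted p = 0.0502). HSPE1, the mitochondrial co-chaperonin, and HSPH1, a nucleotide exchange factor, had differences of -0.62 ± 0.10 and -0.89 ± 0.19. BAG3, a co-chaperone of HSP70, was lower mainly in batch 1, at -1.33 and -0.35 in batches 1 and 2. The 2 list genes higher in both batches were HSF1, at 0.14 (unadjusted p = 0.29), and HSPA9, the mitochondrial HSP70. HSPA9 went from 169 to 241 FPKM (batch 1) and 115 to 184 FPKM (batch 2) (0.59 ± 0.10, adjusted p = 0.0965).

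**Figure D4:**
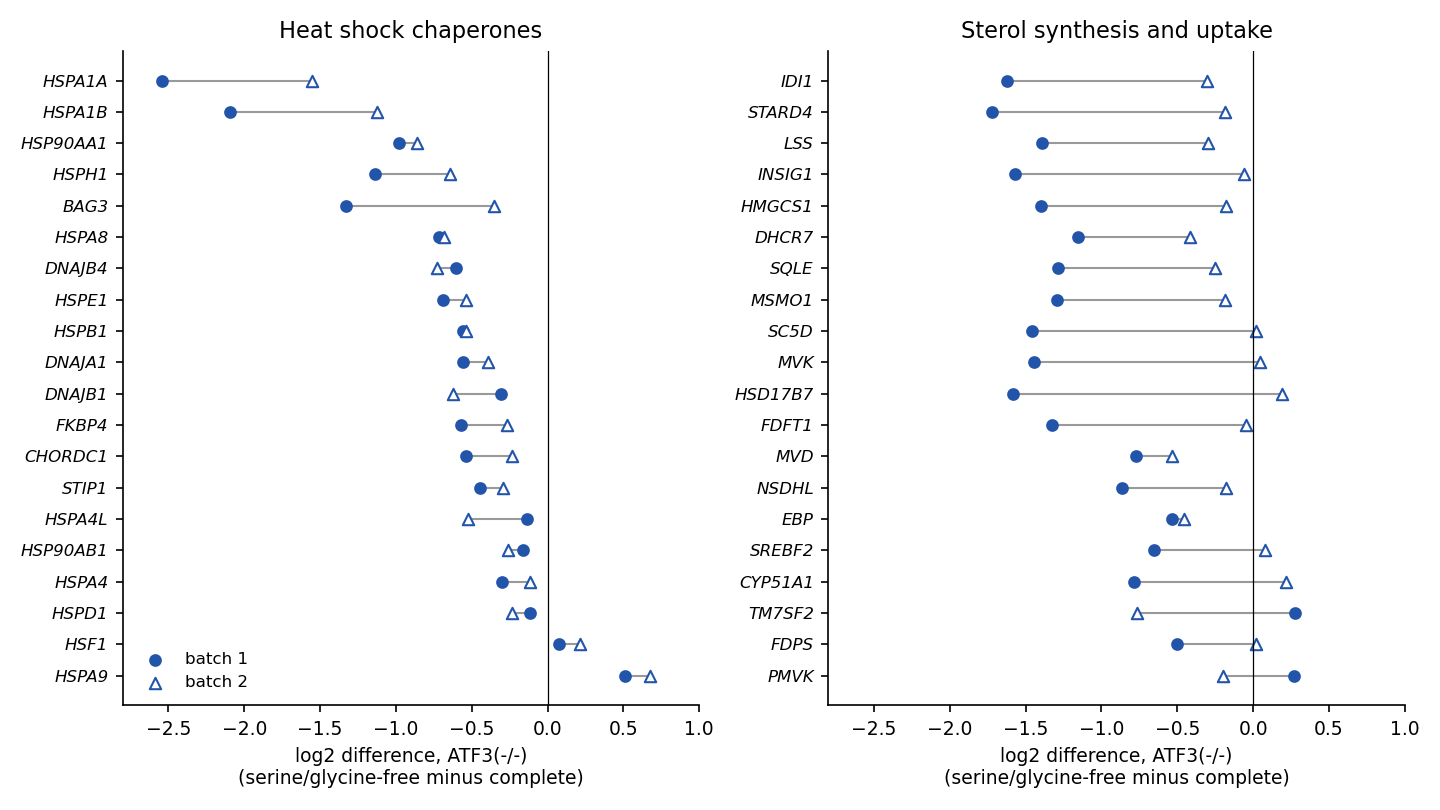
Log2 difference (serine/glycine-free minus complete) of each tested heat shock chaperone gene (left, 20 genes) and of 20 of the 23 sterol genes (right) in the knockout-labelled pairs, with batch 1 as filled circles and batch 2 as open triangles. The chaperone points of both batches lie left of 0 for 18 genes, whereas most sterol genes shown are nearer 0 in batch 2 than in batch 1.

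Genes of sterol synthesis, targets of the factor SREBP2, were lower mainly in batch 1. Their median was -1.16 in batch 1 and -0.19 in batch 2, with 14 of 23 lower in both batches, none higher in both and none called. MVD, a mevalonate pathway decarboxylase, was lower in both, from 63.2 to 36.6 FPKM (batch 1) and 26.3 to 17.8 FPKM (batch 2) (-0.66 ± 0.13, adjusted p = 0.16). EBP, a sterol isomerase, had a difference of -0.50 ± 0.14. LSS, which closes the sterol rings, was at -1.39 in batch 1 and -0.29 in batch 2. INSIG1, a sterol-sensing retention factor, was at -1.57 in batch 1 and -0.06 in batch 2. The direction of the list median thus held in both batches and its size did not, and 9 of the 23 genes did not move alike in both.

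Fatty acid synthesis genes were lower in 11 of 13 cases in both batches, with medians of -0.44 and -0.32, and none was called. FASN, fatty acid synthase, went from 64.6 to 38.8 FPKM (batch 1) and 15.3 to 9.33 FPKM (batch 2) (-0.69 ± 0.14, adjusted p = 0.177). The desaturase genes FADS1 and FADS2 each had a difference of -0.55 and SCD one of -0.73 ± 0.23, at -1.16 in batch 1 and -0.29 in batch 2. LPIN1, a phosphatidate phosphatase, was at -1.35 in batch 1 and -0.32 in batch 2. In contrast to these lists, the 25 genes of sphingolipid and phosphatidylserine synthesis, whose products use serine, had a median of 0.15 (0.10 and 0.25 by batch), with 12 higher in both batches and 3 lower in both.

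Ribosome biogenesis genes were modestly higher. Of 37 tested, 33 were higher in both batches, none was lower in both and 2 were called. At an unadjusted p under 0.05, 22 were higher, against 6.43% of protein-coding genes. The list's median was 0.41 (0.53 and 0.34 in batches 1 and 2). WDR43, a processome subunit, went from 32.3 to 63.1 FPKM (batch 1) and 34.8 to 71.5 FPKM (batch 2) (0.98 ± 0.11, adjusted p = 0.0388). DDX21, a nucleolar helicase, went from 59.1 to 112 FPKM (batch 1) and 60.01 to 105 FPKM (batch 2) (0.85 ± 0.10, adjusted p = 0.0451). RRP12, an export factor of preribosomes, had a difference of 1.07 ± 0.18 and DKC1, the pseudouridine synthase, one of 0.68 ± 0.11. The 78 cytosolic ribosomal protein genes had a median of 0.09 and none was called. Among non-coding hosts of snoRNAs, EPB41L4A-AS1 went from 26.8 to 51.6 FPKM (batch 1) and 34.5 to 82.2 FPKM (batch 2) and ZFAS1 from 60.1 to 101 FPKM (batch 1) and 223 to 384 FPKM (batch 2). Each was higher in both batches, without passing in the fit of all genes (adjusted p = 0.19 and 0.27). SNHG5 went from 34.2 to 1240.5 FPKM (batch 1) and 2085 to 50.7 FPKM (batch 2), in opposite directions, whereas both wildtype pairs were lower (-4.25 and -6.29).

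Inflammatory genes were mostly higher, several of them from very different starting levels in the 2 batches. Of 26 NF-kappaB and inflammatory genes tested, 20 were higher in both batches, 1 was lower in both and none was called, with a median of 0.63 for the mean of both batches. The median was 0.31 in batch 1, the value without either batch 2 library, and 0.58 in batch 2, and it was 0.33 among genes with 1 FPKM in all 4 libraries. NFKB2, the precursor of a noncanonical subunit, went from 14.98 to 35.2 FPKM (batch 1) and 12.4 to 22.6 FPKM (batch 2) (1.0 ± 0.16, adjusted p = 0.0917). The chemokine gene CCL20 went from 0.235 to 3.50 FPKM (batch 1) and 6.55 to 40.9 FPKM (batch 2) (2.17 ± 0.46, adjusted p = 0.126), and LIF, a cytokine of the IL-6 family, went from 10.6 to 23.1 FPKM (batch 1) and 22.3 to 37.2 FPKM (batch 2) (0.88 ± 0.16). IL8, a neutrophil chemokine, was above 600 FPKM only in batch 2, from 0.550 to 2.02 FPKM (batch 1) and 659 to 1849 FPKM (batch 2). IL6 showed the same split, from 0.195 to 0.269 FPKM (batch 1) and 46.9 to 361 FPKM (batch 2), and so gave differences of 0.09 and 2.92. STC2, a secreted stress factor on the ATF4 list, was at 0.0560 and 0.0785 FPKM in batch 1 and 138 and 406 FPKM in batch 2. In the knockout-labelled libraries these high levels stood in batch 2, at epithelial marker sums of 1429 and 1166. In wildtype, IL8 was also high in batch 2, at 191 and 1355 FPKM in complete and serine/glycine-free medium, at sums of 590 and 377. It was at 0.475 and 2.89 FPKM in wildtype batch 1, at sums of 360 and 318. The wildtype sums differ in make-up between the batches. CLDN4 was at 15.3 and 6.24 FPKM in batch 1 and 135 and 55.5 FPKM in batch 2, and KRT19 was high only in batch 2, as above. The part of cell identity in the levels of IL8, IL6 and STC2 was not tested.

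Several of the 21 genes called higher are on none of the lists above. UAP1, which makes UDP-N-acetylglucosamine, went from 29.4 to 138 FPKM (batch 1) and 45.6 to 156 FPKM (batch 2) and had the second smallest p of all protein-coding genes (1.97 ± 0.14, adjusted p = 0.0086). CSRP1, a LIM protein of actin fibres, went from 39.9 to 113 FPKM (batch 1) and 31.97 to 80.3 FPKM (batch 2) (1.39 ± 0.13, adjusted p = 0.0213). FHL2, a LIM protein that moves between adhesions and nucleus, went from 31.5 to 77.8 FPKM (batch 1) and 36.1 to 78.97 FPKM (batch 2) (1.19 ± 0.12, adjusted p = 0.0222). ARHGEF2, a microtubule-bound activator of RhoA, had a difference of 1.36 ± 0.16, and CIRBP, an RNA-binding protein induced by cold, 1.01 ± 0.12. GTPBP2, a GTPase linked to ribosome rescue, went from 20.3 to 41.4 FPKM (batch 1) and 20.6 to 48.4 FPKM (batch 2) (1.09 ± 0.13, adjusted p = 0.0483). KRT34, a hair keratin, went from 3.28 to 34.4 FPKM (batch 1) and 0.533 to 7.85 FPKM (batch 2) (2.79 ± 0.28, adjusted p = 0.0222), and KRTAP2-3, a keratin-associated protein of a gene family with close copies, went from 0.810 to 8.70 FPKM (batch 1) and 1.30 to 15.4 FPKM (batch 2) (2.63 ± 0.25, adjusted p = 0.0222). TAGLN, an actin-binding protein of smooth muscle, went from 14.6 to 33.8 FPKM (batch 1) and 4.96 to 16.7 FPKM (batch 2) and did not pass (1.36 ± 0.19, adjusted p = 0.0646). The endothelial-type secreted gene ESM1 had a larger difference that did not pass, at 4.01 and 1.83 (adjusted p = 0.119). Of 20 TGF-beta and YAP target genes, 8 were higher in both batches and 3 lower in both, beside 29.3% and 27.3% of protein-coding genes.

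Of the 16 protein-coding genes lower by 1 or more in both pairs, none was called, and the chaperones HSPA1A and HSPA1B are 2 of them. PFKFB4, which sets the level of a glycolytic activator, went from 7.70 to 2.70 FPKM (batch 1) and 24.1 to 5.89 FPKM (batch 2) (-1.55 ± 0.22, adjusted p = 0.0585). CLDN4, a tight junction protein, fell in the protein-coding fit and went from 20.97 to 8.60 FPKM (batch 1) and 171 to 90.8 FPKM (batch 2) (-1.05 ± 0.13, adjusted p = 0.0485). ANKRD9, an adaptor of a ubiquitin ligase, went from 14.9 to 5.65 FPKM (batch 1) and 38.8 to 18.7 FPKM (batch 2) (-1.14 ± 0.15, adjusted p = 0.0585). APAF1, the scaffold of the apoptosome, had a difference of -1.25 ± 0.21, and ACKR3, a chemokine scavenging receptor, -1.15 ± 0.26. NLGN2, a synaptic adhesion protein, went from 5.33 to 1.20 FPKM (batch 1) and 3.85 to 0.438 FPKM (batch 2) (-1.64 ± 0.41, adjusted p = 0.184). HAS3, a hyaluronan synthase, was lower from very different levels, from 2.02 to 0.444 FPKM (batch 1) and 35.1 to 6.73 FPKM (batch 2). The largest mean difference of the lower genes, that of LUZP6, rests on a value of 0 in batch 1 and is not read. The 21 glycolysis genes had medians of 0.03 in batch 1 and -0.39 in batch 2, none higher in both and 9 lower in both, of which ENO2, the neuronal enolase isoform, was at -0.95 ± 0.18. Mitochondrially encoded mRNAs were lower in both batches for 10 of 13, with medians of -0.41 and -0.11.

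Mitotic genes were slightly lower. Of 29 tested, 19 were lower in both batches, 1 was higher in both and none was called. At an unadjusted p under 0.05, 8 were lower, against 4.63% of protein-coding genes. The list's median was -0.17 (-0.26 and -0.12 by batch). CDC20, the activator of the anaphase-promoting complex, went from 131 to 88.7 FPKM (batch 1) and 41.7 to 26.8 FPKM (batch 2) (-0.59 ± 0.10, adjusted p = 0.121). KIF20A, a kinesin of cytokinesis, had a difference of -0.59 ± 0.14, and TOP2A, the mitotic topoisomerase, -0.42 ± 0.11. Of the 19 G1 control genes, 11 were lower in both batches. CDKN1A, the cyclin kinase inhibitor p21, was higher in both (0.66 and 1.25; unadjusted p = 0.033), as was GADD45A (0.95 ± 0.16), a p53 and ATF4 target. The 24 p53 targets tested had a median of 0.10 (0.17 and 0.28 by batch).

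Some genes moved in opposite directions in the 2 batches. TGFB2, a secreted growth factor, went from 41.2 to 15.6 FPKM (batch 1) and 51.4 to 106 FPKM (batch 2). PRKD2, a protein kinase, went from 16.3 to 4.72 FPKM (batch 1) and 2.88 to 7.10 FPKM (batch 2), and GPR1, a chemerin receptor, from 6.10 to 2.26 FPKM (batch 1) and 0.389 to 3.32 FPKM (batch 2). The YAP targets CYR61 (-0.95 and 1.23) and AMOTL2 (-0.83 and 1.04) did the same. HK2, a hexokinase, was at 1.73 in batch 1 and -0.66 in batch 2, and NDRG1, a hypoxia-induced gene, was lower only in batch 2, from 34.7 to 42.7 FPKM (batch 1) and 503 to 144 FPKM (batch 2). For these genes the mean of 2 pairs describes neither batch.

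**Figure D5:**
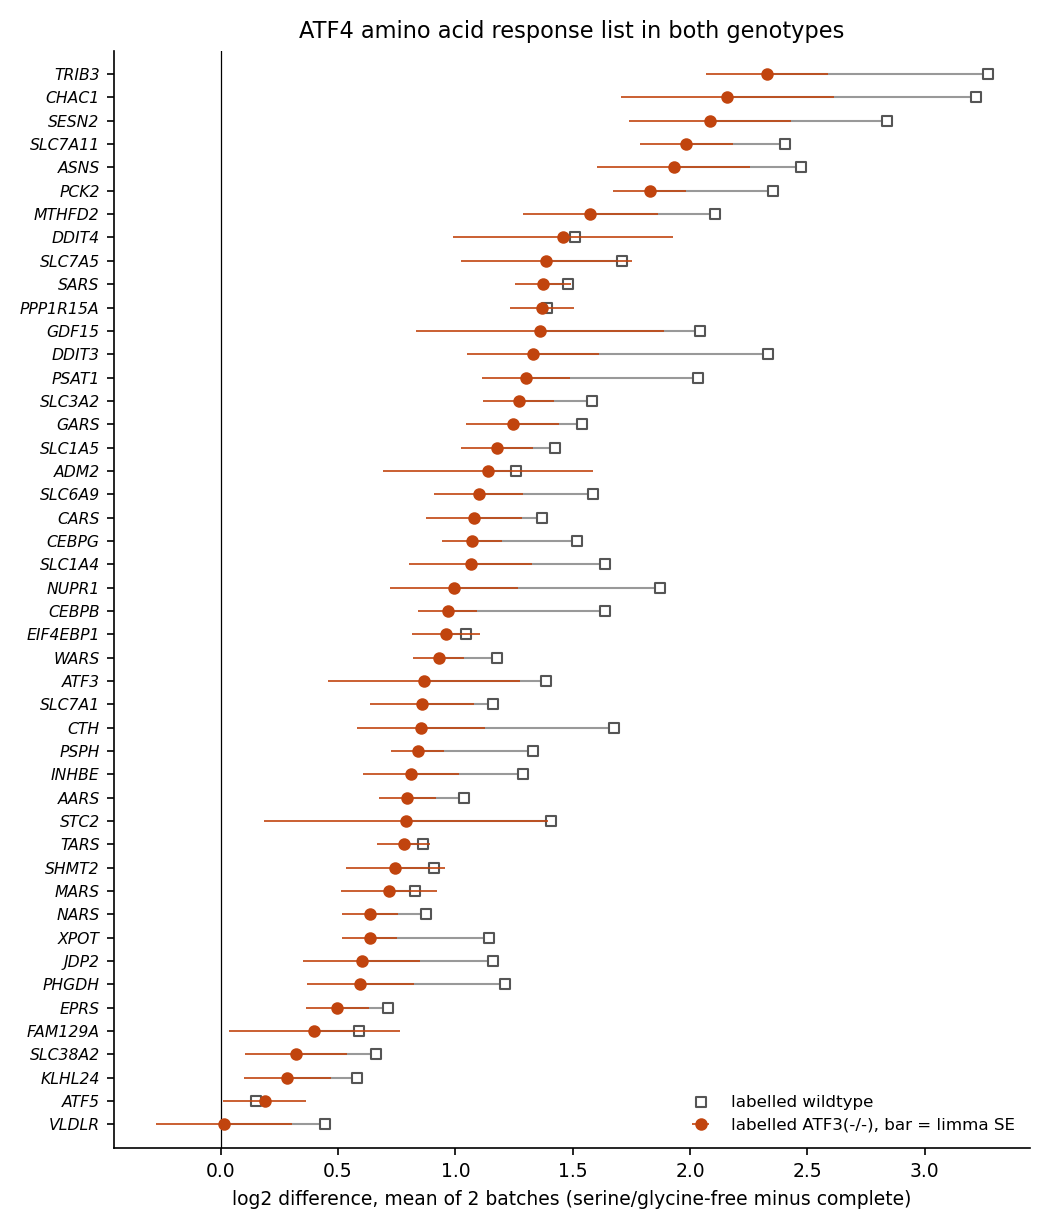
Log2 difference (serine/glycine-free minus complete, mean of 2 batches) of the 46 tested ATF4-list genes in cells labelled ATF3(-/-), as circles with the limma SE, and in cells labelled wildtype, as squares. The circle lies left of the square for 45 genes, and ATF5 is the exception.

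No protein-coding gene passed the limma test of the difference between the responses of the 2 genotype labels, in the fit of all genes or of protein-coding genes alone. At an unadjusted p under 0.05 that difference was lower for 117 of the 12481 protein-coding genes and higher for 114. Together these are a smaller share of the genes tested than the threshold of 0.05. The mean responses of the 2 genotypes correlated at r = 0.590 over protein-coding genes, as a description. The ATF4-list median was 0.98 in cells labelled ATF3(-/-) and 1.40 in wildtype. The response was smaller under the ATF3(-/-) label for 45 of 46 list genes on average (97.8%, against 53% of all protein-coding genes), and in each batch for 35 (76.1%, against 26.9%). These counts describe a list chosen with earlier results known. The list's median of the difference was -0.25 in batch 1 and -0.56 in batch 2. CEBPB had a difference between the responses of -0.67 ± 0.18 (unadjusted p = 0.012), TRIB3 -0.94 ± 0.37 (unadjusted p = 0.049) and PSAT1 -0.73 ± 0.26 (unadjusted p = 0.038).

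The smaller response went with different levels in the 2 batches. In batch 2, 39 of the 46 genes were higher under the ATF3(-/-) label in complete medium, with a median log2 difference between genotypes of 0.52. In medium without serine and glycine 22 were higher, with a median of -0.02. In batch 1, 24 of 46 were higher in complete medium (median 0.03) and 10 without serine and glycine (median -0.20). Genotype levels were thus nearest each other in serine/glycine-free medium in batch 2 and in complete medium in batch 1. Cell identity of the libraries differs between genotypes in batch 2, as above, and its part was not tested.

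Outside the ATF4 list, the largest tested difference between genotypes among chaperones was that of HSPA8, which was lower by less under the ATF3(-/-) label (-0.70 against -1.65 in wildtype, difference 0.95 ± 0.15, unadjusted p = 0.0012). The chaperone and sterol lists otherwise had a median difference near 0, at 0.04 and -0.04. For 28 of 29 mitotic genes the mean response was below that in wildtype, and for 22 it was below it in both batches, beside 6611 and 3354 of all 12481 protein-coding genes. The median difference was -0.16, and none of these genes had an unadjusted p under 0.05 for it. Metallothionein genes MT1X and MT2A had differences between responses of 0.59 ± 0.40 and 0.99 ± 0.53 (unadjusted p = 0.2 and 0.12). For MT1X the responses were 4.04 against 4.11 in batch 1 and 4.16 against 2.90 in batch 2, and the difference was -0.012 without either wildtype library of batch 2. TAGLN was higher by more under the ATF3(-/-) label (1.36 against 0.24, unadjusted p = 0.0088), as was CSRP1 (1.39 against 0.75, unadjusted p = 0.014). C4orf48, a small secreted protein gene, was lower in both knockout-labelled batches and near 0 in wildtype (-0.72 against 0.02, unadjusted p = 0.0066). None of these differences passed after adjustment.

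The calls in the fit of all genes were small RNA genes with 0 in whole groups, so no fold is given. Each was kept by the filter on low values only through the 2 knockout-labelled libraries of 1 medium. Its call is thus no support for a response. SNORD54, a snoRNA, was listed at 0 in complete medium and at 2146 and 845 FPKM in serine/glycine-free medium in batches 1 and 2. In wildtype it was the reverse, at 2458 and 2023 FPKM in complete medium and then at 0. RNU6-1201P, a spliceosomal RNA pseudogene, was at 55.1 and 50.1 FPKM in complete medium and 0 without serine and glycine, and in wildtype at 0 and then at 43.0 and 73.2. SNORD85 was at 0 in complete medium and at 981 and 1142 FPKM in serine/glycine-free medium. In wildtype it was at 884 and 574 FPKM in the batch 1 libraries and at 0 in both of batch 2. AL034400.1 was at 0 in complete medium, at 725 and 422 FPKM in serine/glycine-free medium and at 0 in all wildtype libraries. SNORD23 was at 0 and then at 47.7 and 27.2 FPKM, and RNU2-30P at 9.90 and 9.29 FPKM and then at 0. Genes listed as small RNAs held 61.0 to 62.8% of the summed FPKM in the knockout-labelled libraries, and an exact 0 beside such values can be an estimate that failed.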

How the data were processed

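RNA was sequenced from 8 cultures of hTERT-RPE1, a human cell line, at 2 genotype labels, 2 media and 2 batches. The authors deposited 1 FPKM table per batch, made with TopHat, Cufflinks and Cuffdiff on hg19, per the submitters' processing notes. Their versions and options are not stated there. The tables were normalized separately, so values were compared within a batch, and the number of fragments per library, and with it the counting error, is unknown. Gene types came from GENCODE 29, matched for 96.5% of tested genes, and upstream windows from RefSeq. Log2(FPKM + 1) was fitted with limma 3.58.1 (R 4.3.3, trended prior). The pair of cultures of each genotype and batch was a block, since the labels say that equal numbers share a batch. The main fit, of all genes, had 2 residual and 3.18 prior degrees of freedom. The fit of protein-coding genes alone estimated its own prior, whose degrees of freedom are not given. Its unadjusted p-values therefore differ too (for MT1X, 6.0e-07 against 2.3e-05 in the fit of all genes). Deviations of same-numbered libraries correlated at 0.713 to 0.833 over genes. P-values are two-sided and adjusted by Benjamini-Hochberg at 0.05. Data were simulated for the response labelled ATF3(-/-) (16098 genes), with each gene's residual spread taken as its true spread. In them, 1 of 100 genes changed by 1 on the log2 scale and 28 of 100 changed by 2 were called. Named genes were ATF3, the genes with the largest difference shared by both pairs, with the smallest p or with the largest opposite movement, and up to 6 list members with the smallest p. A few others (among them CDH1, VIM, KRT19, CDKN2A, HSPA5, MTHFD1, INSIG1, QARS, VARS, KARS, MTF1 and HSF1) were chosen after their values were seen. Members, the 45 gene lists and tests were chosen with earlier results of these data known. Locations are those of the tables, where 33180 genes share a locus with another gene. Some items are not reported here. Reads of overlapping genes and close copies may be misassigned.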

Additional observations from a re-analysis of the deposited data

Results flagged for a closer look

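SNORD54, SNORD85, RNU6-1201P and AL034400.1 passed the limma test of the difference between the responses of the 2 genotype labels (adjusted p = 0.000792, 0.00106, 0.00167 and 0.00612 over all genes). Each was kept by the filter on low values only through the 2 knockout-labelled libraries of 1 medium. The filter thus favoured this pattern, and the test does not establish a different response. Each rests on libraries listed at exactly 0 beside libraries at up to 2458 FPKM, and the pattern differs between the 2 batches in wildtype for SNORD85.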

How the results depend on the processing

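The counts of calls depended on the processing, and the cause was not tested. In the fit of all genes, 4 were higher and 2 lower. Without a filter on low values 1 and 0 were called, with 1 FPKM in all 4 libraries 1 was lower, with a pseudocount of 0.25 1 was lower, with a robust prior 10 were higher, with only the 4 knockout-labelled libraries 17 and 10. Where 1 direction is named, the count in the other is not given. Some of these fits called protein-coding genes higher. These were 6 with 1 FPKM in all 4 libraries, 5 with a robust prior, 4 with only the 4 knockout-labelled libraries and 1 with a pseudocount of 5. Without the replicate block 2 and 1 were called. Leaving out 1 library gave 0 to 17 higher and 0 to 10 lower. For the protein-coding fit (21 higher, 2 lower), alternatives were chosen after seeing the data. A pseudocount of 0.25 gave 13 and 1, a pseudocount of 5 gave 23 and 1, 1 FPKM in all 4 libraries 40 and 6, upper quartile scaling 14 and 1, a robust prior 32 and 5, and only the 4 knockout-labelled libraries 78 and 13. Without the replicate block 0 and 0 were called. Leaving out 1 library gave 0 to 80 higher and 0 to 13 lower. For the difference between genotypes (3 higher, 1 lower), no filter, 1 FPKM in all 4 libraries or protein-coding genes alone gave 0 and 0, a pseudocount of 0.25 gave 5 higher and a robust prior 6. Leaving out 1 library gave 1 to 16 higher and 0 to 12 lower.

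Of all gene types, 92 were higher and 65 lower by 1 or more in both pairs. A pseudocount of 0.25 gave 170 and 116, a pseudocount of 5 gave 41 and 16, a threshold of 0.58 gave 369 and 278, and protein-coding genes alone 51 and 16. With pseudocounts of 0.25 and 5 and with 1 FPKM in all 4 libraries, the ATF4-list median was 1.07, 0.81 and 1.07, and that of amino acid transport 0.50, 0.32 and 0.56. With 1 FPKM in all 4 libraries the NF-kappaB median was 0.33. Leaving out 1 library gave medians of 0.72 to 0.76 for amino acid transport, -0.56 to -0.46 for heat shock chaperones, 0.85 to 1.74 for metallothioneins and zinc handling, 0.31 to 0.58 for NF-kappaB genes and -0.39 to 0.033 for glycolysis, which reversed. All other alternatives kept the direction of the list medians recomputed.

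Leaving out 1 library also turned the direction of genes that moved oppositely in the 2 batches: AMOTL2 (-0.83 to 1.04), CYR61 (-0.95 to 1.23), GPR1 (-1.12 to 1.64), HK2 (-0.66 to 1.73), HSPA5 (-0.34 to 0.62), MTF1 (-0.15 to 0.22), NDRG1 (-1.79 to 0.29), PRKD2 (-1.60 to 1.06), SLC6A6 (-0.63 to 1.15), SNHG5 (-5.33 to 5.14), TGFB2 (-1.35 to 1.02), VARS (-0.052 to 0.19). The difference between genotypes for MT1X ranged from -0.012 to 1.2. Scaling by the median or upper quartile shifted the median of all genes by -0.02 and -0.04. The simulated recovery was low in the fit of all genes. It holds for its setting, where each gene's spread was its own estimate on 2 residual degrees of freedom, and other spreads were not simulated. The fit of protein-coding genes alone was not simulated.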
